A study of Rattus norvegicus with 6 samples.

Results

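The 7 genes described here are the angiopoietins Angpt1 and Angpt2, the Tie receptors Tek and Tie1, and the angiopoietin-like genes Angptl2, Angptl4 and Angptl6, measured by bulk RNA sequencing of rat liver. They were taken from the deposited table by gene symbol. All 7 were found among its 32623 genes, and all 7 passed edgeR's default filter on low counts, which left 14298 genes tested. The 6 libraries fall into 3 from liver embolized with blank microspheres (GM, the control) and 3 from liver embolized with ZnS (zinc sulfide) microspheres (GZM). Embolization plugs feeding vessels, and both groups underwent it. The study's title names hepatocellular carcinoma, while each sample is labelled simply as liver, with no word on tumour tissue. Strain, age and time after embolization were not found in the labels. Samples are numbered as replicate biosamples without mention of separate animals, and the spread behind the p-values may therefore be technical.

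Angiopoietins are secreted ligands of the receptor tyrosine kinase Tie2, the product of Tek, which sits mainly on endothelial cells. Angiopoietin 1, made chiefly by pericytes and other mesenchymal cells, activates Tie2 and stabilizes vessels. Angiopoietin 2, released by endothelial cells, often opposes that signal and goes with vessel sprouting or regression, and Tie1 modulates Tie2. The angiopoietin-like proteins have a related fold but do not bind Tie2. Several of them come from hepatocytes or fat cells and act on lipid metabolism through lipoprotein lipase.

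Promoter sequences of 4 of the 7 genes (Tie1, Angptl2, Angptl4 and Angptl6) were matched by symbol in the RefSeq promoter table, which spans 250 bases before and 50 after each start site in build GRCr8. Angpt1, Angpt2 and Tek had no entry. Both strands were searched for short motifs. These were ACGTG, a core of the hypoxia-inducible factor site, and its variant GCGTG. A forkhead core, GTAAACA, was also searched, as was GGAAGT, a core of the ETS factors that act at endothelial promoters. The last motif was the direct repeat with 1 free base (DR1) bound by peroxisome proliferator-activated receptors (PPARs). Angptl4 (chr7:15258632-15258931, minus strand) held ACGTG once, on the strand opposite to transcription from position -230 (the start site being 0), and 19.3% of all 33469 promoters hold it. Tie1 (chr5:137304932-137305231, minus strand) held GGAAGT once, also on the opposite strand, at position -169, against 22.6% of all promoters. Angptl2 and Angptl6 held none of these letters in this window. GCGTG stands in 29.7% of all promoters, GTAAACA in 3.78% and DR1 in 0.0538%, and none of the 4 held any of these. The promoters with a match are shown 5′ to 3′ in the direction of transcription, with the match in capitals, because Angptl4 is a known hypoxia- and PPAR-responsive gene and Tie1 an endothelial one.
Angptl4: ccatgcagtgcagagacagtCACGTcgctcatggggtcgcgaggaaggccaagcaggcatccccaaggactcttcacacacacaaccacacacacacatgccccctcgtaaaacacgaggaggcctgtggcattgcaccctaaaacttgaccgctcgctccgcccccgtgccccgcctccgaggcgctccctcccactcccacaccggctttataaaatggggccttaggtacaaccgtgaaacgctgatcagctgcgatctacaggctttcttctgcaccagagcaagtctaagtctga
Tie1: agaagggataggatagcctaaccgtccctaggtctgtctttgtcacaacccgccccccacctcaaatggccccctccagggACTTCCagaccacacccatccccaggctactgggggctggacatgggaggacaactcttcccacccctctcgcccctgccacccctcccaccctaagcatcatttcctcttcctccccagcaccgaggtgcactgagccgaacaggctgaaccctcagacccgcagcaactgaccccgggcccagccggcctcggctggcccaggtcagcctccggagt

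Library totals ran from 13443115 to 16604067 counts. Levels of 1 gene across libraries are given as CPM, counts per library size scaled with TMM factors, which edgeR estimates so that most genes centre on no change, and levels of different genes are compared by the deposited FPKM, which divides by exon length and by the library total. The TMM factors were 1.17 to 1.43 in GM and 0.715 to 0.793 in GZM, so the scale matters. With plain library totals in place of TMM factors the median log2 fold change (GZM minus GM) of all tested genes moved from -0.09 to -0.92. Transcripts of 19 hepatocyte markers took 2.89% to 9.19% of counts in GM and 15.5% to 16.7% in GZM. On the first principal component GM 3 stood at -34.9, nearer to the GZM libraries (66.4 to 74.7) than GM 1 (-75.3) and GM 2 (-101.1).

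Angpt2 fell in GZM, while the receptor gene Tek and the liver-derived Angptl6 rose, at the 0.05 threshold of adjusted p (edgeR, quasi-likelihood). Angpt1, Tie1, Angptl2 and Angptl4 did not pass. These are 2 of 7 genes higher (28.6%) against 22.2% of all tested genes, and 1 of 7 lower (14.3%) against 21.7%. The 3 calls in either direction (42.9%) compare with 44% of all tested genes, so the count by itself says nothing particular about these genes. The median log2 fold change of the 7 was -0.06, beside -0.09 for all tested genes. Without both GM 3 and GZM 1, 3 of the 7 were higher (Angptl4 being the addition) and 1 lower. The 2 groups of libraries did not overlap in CPM for 4 of the 7 (57.1%, against 58.1% of all tested genes). With library totals 4 of the 7 were lower (Angpt1, Angpt2, Tie1 and Angptl2) and 0 higher, where 59.5% of all genes were lower and 9.2% higher. Of the 7, Angpt2 alone was called in the same direction on both scales.

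**Figure D1:**
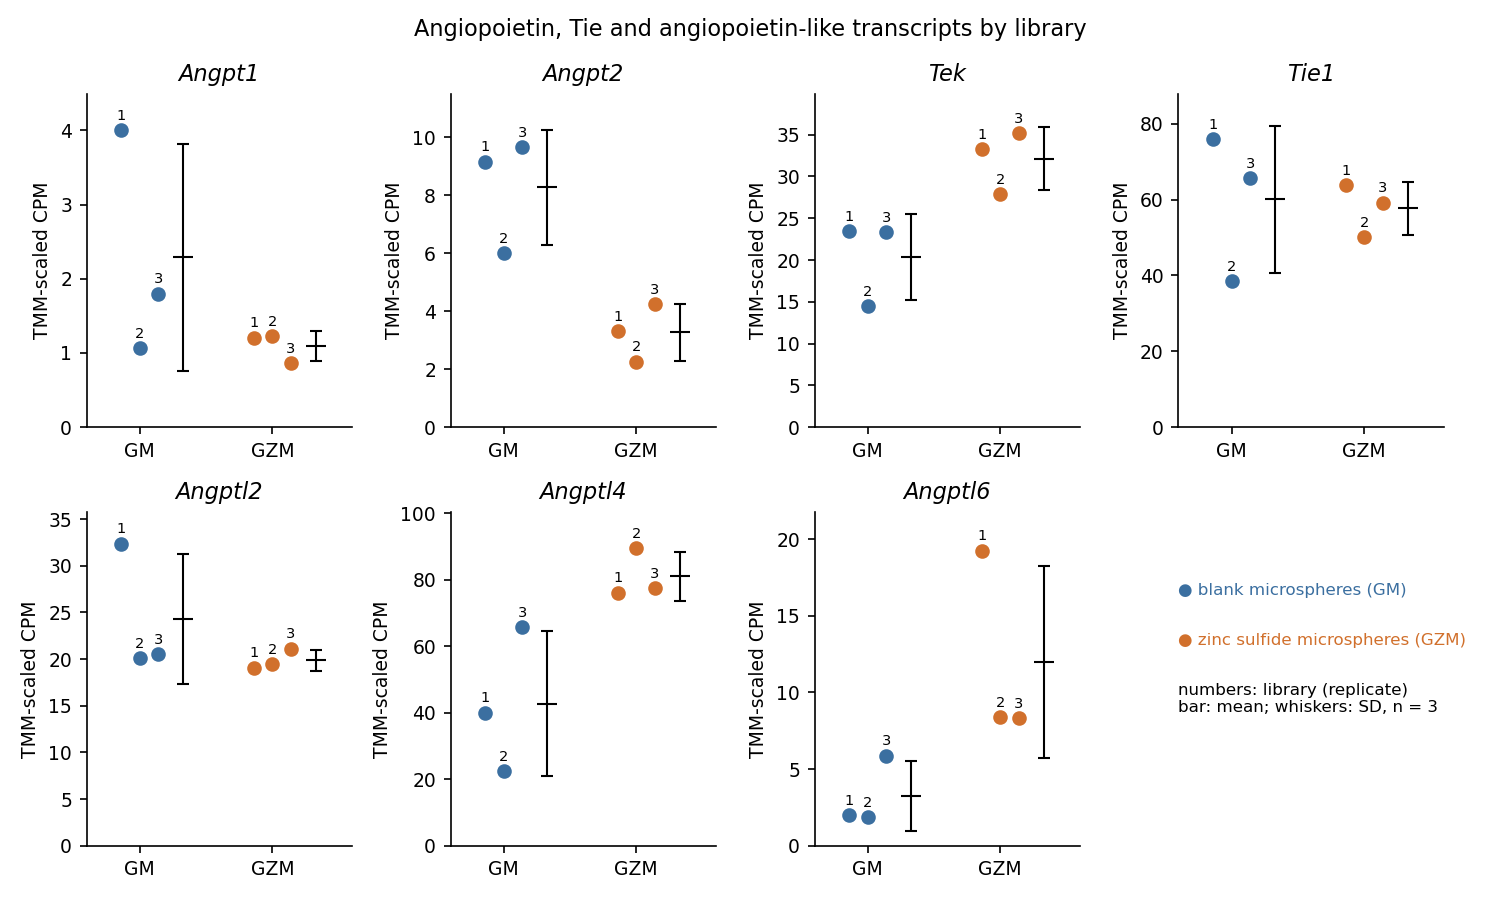
TMM-scaled CPM (vertical axes, each starting at 0) of the 7 genes in each of the 6 libraries; points are libraries labelled with their replicate number, and bars beside them the mean with SD (n = 3). Angpt2 stands at 6.0 to 9.66 in GM and 2.26 to 4.24 in GZM, and Tek at 14.5 to 23.4 and 27.9 to 35.2.

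Within GM the order of FPKM levels was Angptl4 (29.3 ± 12.0), Tie1 (17.5 ± 5.89), Angptl2 (15.5 ± 5.49), Tek (5.94 ± 1.42), Angpt2 (4.48 ± 0.939), Angptl6 (2.62 ± 1.52) and Angpt1 (1.64 ± 1.20; SD, n = 3 throughout). Among neighbours in that order the libraries of Angptl2 and Tek did not overlap, and the other neighbouring pairs did. In GZM the order was Angptl4 (32.1 ± 2.03), Tie1 (9.47 ± 1.43), Angptl2 (7.01 ± 0.747), Angptl6 (5.71 ± 2.94), Tek (5.30 ± 0.876), Angpt2 (1.01 ± 0.360) and Angpt1 (0.430 ± 0.0608). Here Angptl4 stood clear of Tie1, Tek clear of Angpt2, and Angpt2 clear of Angpt1, while Tie1, Angptl2 and Angptl6 each overlapped the next. In every library the 2 receptors were above both ligands in FPKM.

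Among the ligands, Angpt2 (ENSRNOG00000016696, chromosome 16, 75966352 to 76016195, plus strand) had 190, 141 and 188 counts in GM 1, 2 and 3, against 33, 24 and 54 in GZM 1, 2 and 3. In CPM these were 9.16, 6.0 and 9.66 for GM, against 3.31, 2.26 and 4.24 for GZM. Every GZM library lay below every GM library. Mean levels were 8.28 ± 1.99 CPM in GM and 3.27 ± 0.989 in GZM (SD, n = 3 each), 2.52-fold lower in GZM (log2 fold change -1.33 ± 0.33 SE, edgeR adjusted p = 0.0146). With library totals the log2 fold change was -2.14 (adjusted p = 0.00148). The call was lost without GM 1 (adjusted p = 0.0513) or GZM 2 (0.0616). It was kept without both GM 3 and GZM 1 (-1.13, adjusted p = 0.0486).

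Angpt2 lies wholly within Mcph1, a gene of chromosome condensation and the DNA damage response, which is read from the opposite strand. Mcph1 itself fell, by 1.95 on the log2 scale (adjusted p = 0.00819), with 226, 321 and 140 counts in GM 1, 2 and 3, against 18, 21 and 55 in GZM 1, 2 and 3. The overlap is one of gene spans, and whether the 2 genes share exon bases was not examined. The libraries kept strand, per the labels, but the strand setting of the counting is unstated. Any reads of shared exon bases could therefore not be assigned to 1 gene with certainty. Relative to Mcph1 in the same library, Angpt2 had no lower mean in GZM: the difference of log2(FPKM + 0.1) was 0.08 ± 0.79 in GM and 0.67 ± 0.39 in GZM (SD, n = 3; exact two-sided permutation p = 0.4), with overlapping groups.

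Angpt1 (ENSRNOG00000005854, chromosome 7, 81342280 to 81592206, minus strand) was the scarcest of the 7. Its counts were 83, 25 and 35 in GM 1, 2 and 3, against 12, 13 and 11 in GZM 1, 2 and 3. The CPM values were 4.00, 1.06 and 1.80 for GM, against 1.2, 1.23 and 0.864 for GZM, so GM 1 stood apart and GM 2 lay within the GZM range. The log2 fold change of -1.06 ± 0.54 SE did not pass (edgeR adjusted p = 0.148), and 2 SE either side span -2.15 to 0.03. Without GM 1 it was -0.39 (adjusted p = 0.55). With library totals it passed, at -1.91 (adjusted p = 0.0154).

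Of the receptors, Tek (ENSRNOG00000008587, chromosome 5, 113725717 to 113852799, plus strand) had 486, 340 and 454 counts in GM, against 332, 296 and 448 in GZM. On the TMM scale these came to 23.4, 14.5 and 23.3 CPM for GM, against 33.3, 27.9 and 35.2 for GZM, with no overlap. The means were 20.4 ± 5.15 and 32.1 ± 3.77 CPM (SD, n = 3 each), 1.57-fold higher in GZM (log2 fold change 0.66 ± 0.22 SE, edgeR adjusted p = 0.0448). The direction rests on the scaling: with library totals it was -0.16 (adjusted p = 0.545), and FPKM overlapped at 4.50 to 7.33 in GM and 4.37 to 6.11 in GZM. Leaving out any library but GM 3 also ended the call, with an adjusted p of 0.0654 without GM 1, 0.0635 without GM 2, 0.0995 without GZM 1, 0.0736 without GZM 2 and 0.133 without GZM 3. Testing without the low-count filter gave 0.0514. A locus on the opposite strand within Tek was too low to be tested.

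Tie1 (ENSRNOG00000020173, chromosome 5, 137294544 to 137321121, minus strand) stood at 75.9, 38.5 and 65.7 CPM in GM 1, 2 and 3, against 63.8, 50.1 and 59.2 in GZM 1, 2 and 3, the GZM libraries all within the GM range. The log2 fold change was -0.06 ± 0.25 SE (edgeR adjusted p = 0.866), with 2 SE either side spanning -0.56 to 0.44. With library totals it passed as lower, at -0.88 (adjusted p = 0.0166).

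**Figure D2:**
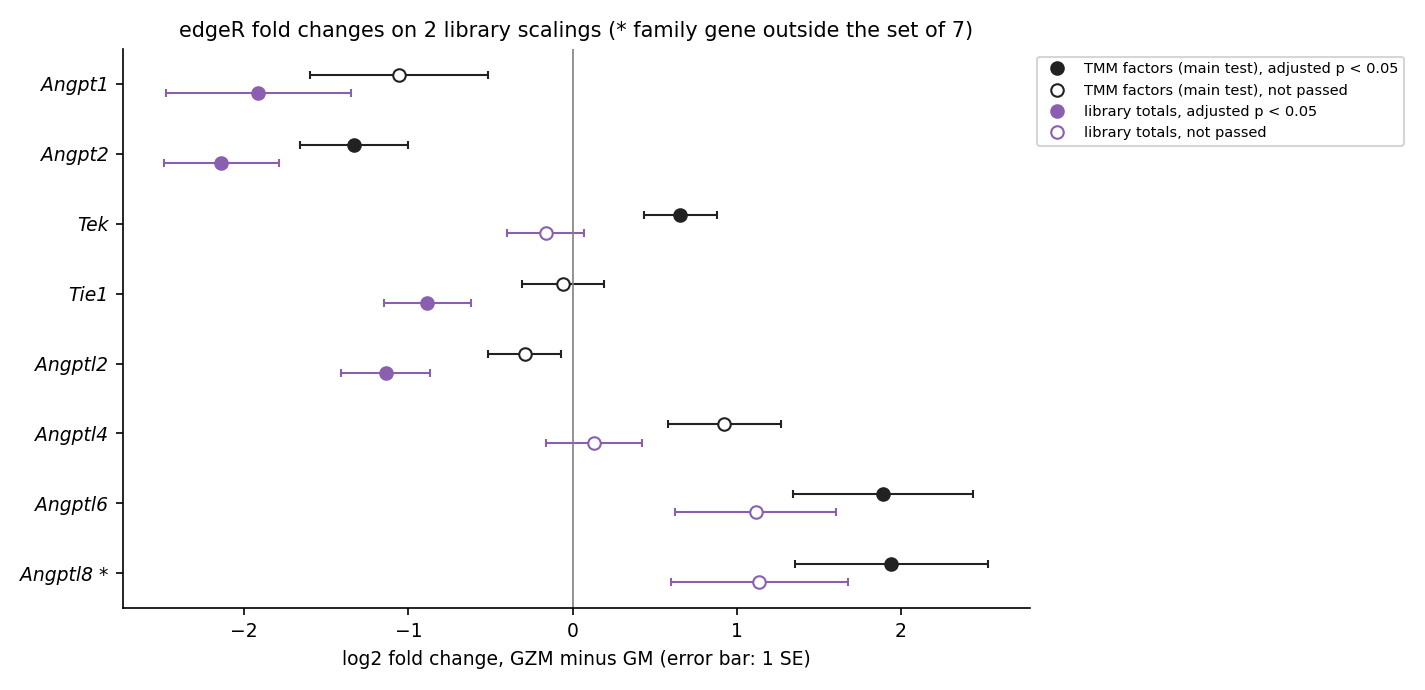
Log2 fold change (GZM minus GM, horizontal axis) of the 7 genes and of Angptl8, with 1 SE, from edgeR with TMM factors (black) and with library totals (purple); filled points have an adjusted p under 0.05. Angpt2 is filled on both scales (-1.33 and -2.14), while Tek changes side (0.66 and -0.16).

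Apart from the pseudocount, ratios within a library do not depend on its scaling, so ligands and receptors were also compared that way, as differences of log2(FPKM + 0.1). For 3 libraries against 3 the smallest two-sided exact permutation p is 0.1, so no such difference can pass 0.05. A set of 13 differences was adjusted together, and none had a Benjamini-Hochberg adjusted exact p below 0.186. Comparisons with overlapping genes were added after seeing the data and lie outside these 13. Angpt2 relative to Tek stood at -0.45, -0.36 and -0.37 in GM 1, 2 and 3, against -2.33, -2.56 and -2.07 in GZM 1, 2 and 3. The groups lay far apart and the GM libraries within a narrow band, a shift of -1.92, or 3.80-fold less Angpt2 per Tek in GZM (exact p = 0.1). Angpt1 relative to Tek stood at -1.25, -2.35 and -2.33 in GM, against -3.28, -3.00 and -3.75 in GZM, a shift of -1.36 without overlap (exact p = 0.1). The balance of the 2 ligands, Angpt2 relative to Angpt1, was 1.59 ± 0.68 in GM and 1.02 ± 0.63 in GZM (SD, n = 3; exact p = 0.3), and the groups overlapped.

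Tie1 relative to Tek was 1.68, 1.39 and 1.47 in GM 1, 2 and 3, against 0.92, 0.83 and 0.74 in GZM 1, 2 and 3. Every GZM library was lower, by 0.68 on average (exact p = 0.1). Against the mean of 18 detected endothelial markers, Tek shifted by 0.41 without overlap (exact p = 0.1) and Angpt2 by -1.52 without overlap (exact p = 0.1). Tie1 shifted by -0.28 with overlap (exact p = 0.2). Taking the median of the markers in place of their mean moved these to 1.2, -0.72 and 0.52, so the size for Tek and Angpt2 and the direction for Tie1 depend on that choice.

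**Figure D3:**
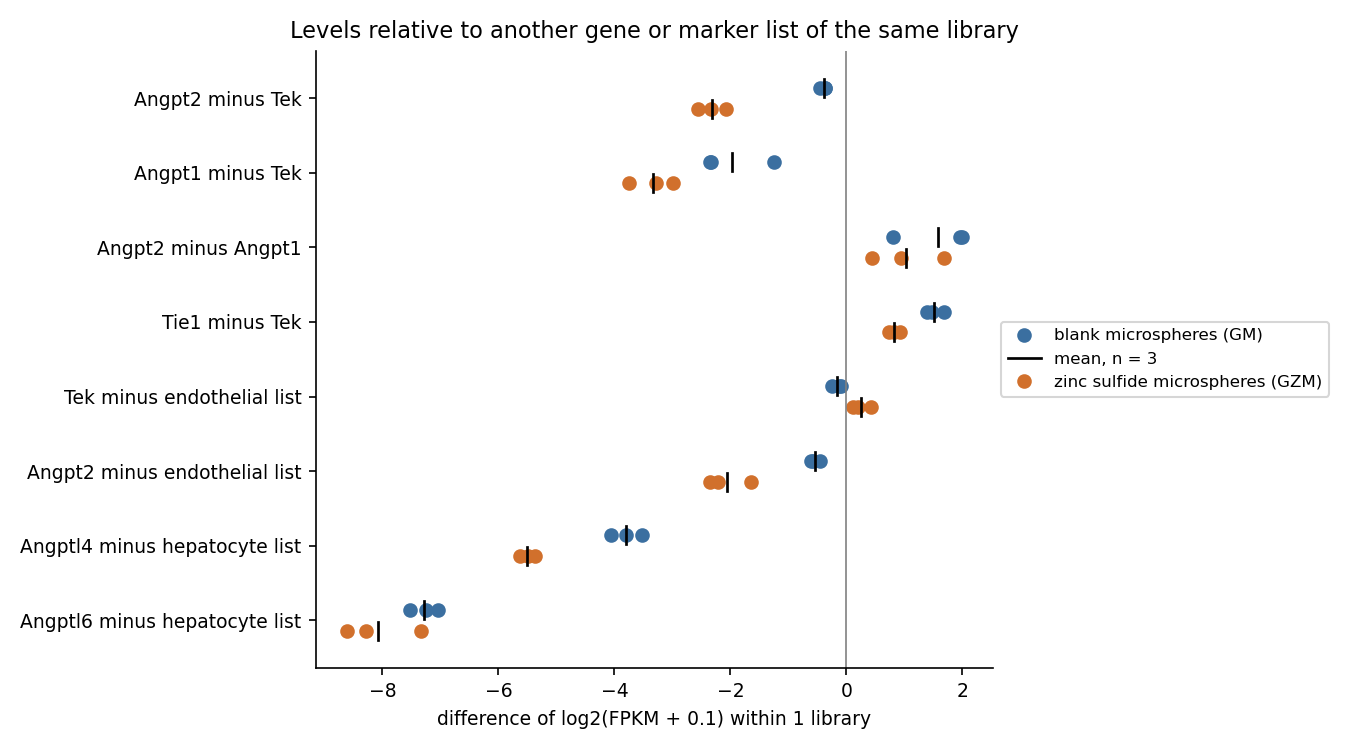
Difference of log2(FPKM + 0.1) between a gene and another gene or the mean of a marker list of the same library (horizontal axis), with 1 point per library and a line at the group mean (n = 3). Angpt2 relative to Tek lies at -0.45 to -0.36 in GM and at -2.56 to -2.07 in GZM, while Angpt2 relative to Angpt1 overlaps.

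Of 17 tested general endothelial genes 4 rose and 4 fell, shares near those of all tested genes (22.2% and 21.7%), and with library totals 1 was higher and 5 lower. S1pr1, a sphingosine phosphate receptor, rose by 1.94 on the log2 scale and Egfl7, a secreted endothelial factor, by 1.24 (0.41 with library totals, not passed). Mmrn2, an endothelial matrix protein, fell by 1.54 and Flt1, encoding a VEGF receptor, fell by 0.83. Kdr, another VEGF receptor gene, rose by 0.78 (edgeR adjusted p = 0.034) but stood at -0.026 with library totals, and lost its call on leaving out any library but GM 3 (adjusted p 0.0588 to 0.0974). The junction gene Cdh5 did not pass (0.27 ± 0.21 SE, edgeR adjusted p = 0.313; -0.57 with library totals). Summed over the list, CPM ran from 436.0 to 539.5 in GM and from 544.4 to 690.8 in GZM. Cldn5 had 0 counts in every library, and Pecam1 was not matched in the table. Of 15 markers of sinusoidal endothelium, the fenestrated lining of liver capillaries, 5 rose and 2 fell, where 22.2% of all tested genes rose and 21.7% fell. With library totals 0 were higher and 5 lower, beside 9.2% and 59.5% of all tested genes. Gata4 (1.16), Lyve1 (1.57) and Oit3 (1.52) rose, as did Flt4 (1.31), whose call ended without GM 1 or any GZM library. In edgeR with library totals none of these passed (Gata4 0.33, Lyve1 0.78, Oit3 0.74 and Flt4 0.51). The 2 that fell, named after their values were seen, were Maf (-0.94) and F8 (-0.68). The list had summed CPM of 268.0 to 570.7 in GM and 552.9 to 630.3 in GZM. Of 10 genes of sprouting tip cells, which make much Angpt2, 1 fell (Unc5b, a netrin receptor gene, fell by 1.19) and 0 rose. The shares over all tested genes were 21.7% lower and 22.2% higher. With library totals 7 of the 10 were lower and 0 higher, beside 59.5% and 9.2% of all tested genes. Their summed CPM was 127.7 to 171.2 in GM and 95.9 to 108.8 in GZM. The part of these lists in the results for Angpt2, Tek and Tie1 was not tested. In bulk tissue, fewer cells of a type and less RNA per cell cannot be told apart.

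Of 20 partners of Tie2 signalling 3 rose and 3 fell, where 22.2% of all tested genes were higher and 21.7% lower, and the median log2 fold change was -0.09 for both. The adaptor genes Grb14 (2.67) and Grb7 (1.9) rose, as did the PI3-kinase subunit gene Pik3r1 (0.59; -0.26 with library totals). The sheddase gene Adam17 fell by 0.94, the Ras inhibitor gene Rasa1 fell by 1.04 and the Tie2 adaptor gene Dok2 fell by 1.11. Pik3r1 and Dok2 were named after their values were seen. Ptprb, the endothelial phosphatase that switches Tie2 off, had a log2 fold change of 0.02 ± 0.35 SE (edgeR adjusted p = 0.977; -0.80 with library totals), and Foxo1, the transcription factor that Tie2 signalling restrains and that drives Angpt2, one of 0.57 ± 0.33 SE (adjusted p = 0.189; -0.25 with library totals). The matrix protein gene Svep1, whose product binds Tie1, was at -1.10 ± 0.56 SE (edgeR adjusted p = 0.148), but passed as lower with library totals (-1.90, 0.0137) and without GM 2 (-1.49, 0.0408) or GZM 1 (-1.76, 0.0437). With library totals 2 of the 20 were higher and 13 lower, beside 9.2% and 59.5% of all tested genes.

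Among the angiopoietin-like genes, Angptl2 encodes a secreted protein of mesenchymal and fat cells that promotes inflammation. Angptl2 (ENSRNOG00000016678, chromosome 3, 12262822 to 12292663, plus strand) stood at 32.4, 20.1 and 20.5 CPM in GM 1, 2 and 3, against 19.1, 19.4 and 21.1 in GZM 1, 2 and 3. GM 1 was high and the other 5 libraries lay close together. The log2 fold change of -0.29 ± 0.22 SE did not pass (edgeR adjusted p = 0.314; 2 SE either side span -0.73 to 0.15), and with library totals it was -1.14 (adjusted p = 0.0061). Angptl2 lies within Ralgps1, a guanine nucleotide exchange factor gene on the opposite strand, which rose by 0.93 (edgeR adjusted p = 0.0235; 0.12 with library totals), a call that ended without GM 1, GM 2, GZM 2 or GZM 3 (adjusted p 0.0591 to 0.0959). Relative to Ralgps1 Angptl2 was lower by 1.18 in GZM within libraries, without overlap (exact p = 0.1).

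Angpt1 and Angptl2 are made by mesenchymal cells. Of 15 stellate cell and pericyte genes 3 rose and 3 fell, again near the shares of all tested genes (22.2% and 21.7%). With library totals 1 was higher and 11 lower, beside 9.2% and 59.5% of all tested genes. Notch3, a pericyte receptor gene, fell by 2.19 and Cspg4, the gene of the NG2 proteoglycan, fell by 2.20. Colec11 (1.75) and Reln (1.25; 0.43 with library totals, not passed) of quiescent stellate cells rose. Pdgfrb, the PDGF receptor of pericytes, did not pass (-0.31 ± 0.31 SE, edgeR adjusted p = 0.446), but was called lower with library totals (-1.15, 0.0126). The summed CPM of the list was 496.6 to 961.2 in GM and 449.5 to 683.9 in GZM. Of 11 fibroblast genes 1 rose (Dpt, by 1.83) and 4 fell, and with library totals 1 was higher and 10 lower (median -1.02, or -1.87 with library totals). The median of all tested genes was -0.09, or -0.92 with library totals, where 59.5% of them were lower. Thy1 fell by 2.08, Mfap5 fell by 2.55 and Pi16 fell by 1.48, each losing its call without GZM 2 (adjusted p 0.0842, 0.085 and 0.0702), and Thy1 and Mfap5 also without GM 1, Pi16 without GZM 3. The list had a summed CPM of 3510 to 9556 in GM and 2044 to 4502 in GZM. GM 1, the library highest in Angpt1 and Angptl2, was also the highest on both lists. Relative to the stellate and pericyte mean, Angpt1 shifted by -0.36 (exact p = 0.4) and Angptl2 by 0.07 (exact p = 0.8), and relative to the fibroblast mean Angptl2 shifted by 0.80 (exact p = 0.3). All 3 overlapped between groups. The part of these cells in the levels of Angpt1 and Angptl2 was not tested.

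Angptl4, an inhibitor of lipoprotein lipase induced by fasting, PPARs and hypoxia, was the most abundant of the 7 per length. Angptl4 (ENSRNOG00000007545, chromosome 7, 18627808 to 18634079, minus strand) stood at 40.0, 22.5 and 65.8 CPM in GM 1, 2 and 3, against 76.0, 89.5 and 77.5 in GZM 1, 2 and 3. All GZM libraries were higher, but the GM libraries spread widely, from GM 2 at the bottom to GM 3 at the top. The log2 fold change of 0.92 ± 0.34 SE narrowly missed the threshold (edgeR adjusted p = 0.06; means 42.7 ± 21.8 and 81.0 ± 7.38 CPM, SD, n = 3 each). Settings in which it passed included those without GM 3 (1.41, adjusted p = 0.00283), without both GM 3 and GZM 1 (1.49, 0.0025), without the low-count filter (0.90, 0.0463) and in DESeq2 (0.94, 0.0385). With library totals it was 0.13 (adjusted p = 0.7), and FPKM overlapped fully, at 16.9 to 40.8 in GM and 29.9 to 33.9 in GZM.

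Most other PPAR targets passed where Angptl4 did not. Of 17 tested PPAR targets and partners 14 rose and 1 fell, at a median of 1.82 (11 and 2 with library totals, median 0.99), led by the fatty acid hydroxylase genes Cyp4a2 (4.43) and Cyp4a1 (3.38) and the fatty acid oxidation genes Acadm (2.47) and Cpt2 (2.37). The receptor gene Ppara rose by 1.29 (0.47 with library totals, not passed), and Pparg, the fat cell form, was the 1 that fell, by 2.07. Within libraries Angptl4 relative to the mean of this list was 0.88, 0.34 and 1.16 in GM 1, 2 and 3, against -0.13, 0.18 and 0.07 in GZM 1, 2 and 3, lower by 0.75 without overlap (exact p = 0.1). Relative to 19 hepatocyte markers it was lower by 1.70, again without overlap (exact p = 0.1). Of 17 hypoxia targets and factors 3 were higher and 5 lower, at a median of 0.03 (0 and 11 with library totals). Over all tested genes 22.2% were higher and 21.7% lower (9.2% and 59.5% with library totals). Those lower included Hif1a, the gene of an oxygen-regulated factor (-1.48), and the glucose transporter gene Slc2a1 (-1.72). Ndrg1 (-1.81), the collagen hydroxylase gene P4ha1 (-1.01) and Egln3 (-1.45) were lower too. Vegfa, the main vessel growth factor gene, rose by 1.11 (0.28 with library totals). Ankrd37 (1.27) and Higd1a (0.59) also rose, but did not pass with library totals (0.47 and -0.23). Egln3, Ankrd37 and Higd1a were named after their values were seen.

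Angptl6, a circulating growth factor made mainly by liver, rose. Angptl6 (ENSRNOG00000020603, chromosome 8, 21895524 to 21901829, minus strand) had 41, 44 and 114 counts in GM, against 192, 89 and 106 in GZM. In CPM these were 1.98, 1.87 and 5.86 in GM 1, 2 and 3, against 19.3, 8.39 and 8.32 in GZM 1, 2 and 3. GZM 1 stood well above the other GZM libraries, GM 3 was the highest of GM, and the groups did not overlap. The means were 3.24 ± 2.27 and 12.0 ± 6.29 CPM, 3.71-fold higher in GZM (log2 fold change 1.89 ± 0.55 SE, edgeR adjusted p = 0.0256). The call was lost without GM 1 (adjusted p = 0.085), GM 2 (0.0731) or GZM 1 (1.38, 0.0814), and with library totals (1.12, adjusted p = 0.0699). In FPKM GM 3, at 4.37, lay above GZM 2 and GZM 3, at 3.82 and 4.20.

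The 3′ end of Angptl6 overlaps Shfl, an antiviral gene on the opposite strand, over 508 bases. Shfl rose by 2.71 (adjusted p = 0.00202) and had 358, 363 and 560 counts in GM 1, 2 and 3, against 1048, 1816 and 1613 in GZM 1, 2 and 3. GZM 1 was thus the highest GZM library in Angptl6 and the lowest in Shfl. Relative to Shfl in the same library, Angptl6 had no higher mean in GZM. The difference of log2(FPKM + 0.1) was -2.74 ± 0.43 in GM and -3.52 ± 0.99 in GZM (SD, n = 3). The groups overlapped (exact two-sided permutation p = 0.3). Without known strand in the counting, reads of the shared bases cannot be told apart. Hepatocyte markers, of which 18 of 19 rose and 0 fell (16 and 0 with library totals; median 2.57; Pck1 by 4.33, Tat by 3.49, Hnf4a by 2.57 and Ttr by 2.39), had a summed CPM of 20421 to 78451 in GM and 195230 to 234125 in GZM, with GM 3 the highest of GM as in Angptl6. Among all tested genes 22.2% rose and 21.7% fell (9.2% and 59.5% with library totals). Alb rose by 1.89 (edgeR adjusted p = 0.0413), which did not hold without any one library other than GM 3 (adjusted p 0.0819 to 0.169) or with library totals (1.12, 0.0619). Relative to these markers Angptl6 shifted by -0.80 with overlap (exact p = 0.2). Their part in the rise of Angptl6 was not tested.

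Outside the 7, Angptl8, a hepatocyte and fat cell hormone that regulates lipoprotein lipase activity, also rose. Angptl8 stood at 22.1, 17.6 and 37.7 CPM in GM, against 200.3, 51.1 and 46.4 in GZM (1.94 ± 0.59 SE, adjusted p = 0.0305). GZM 1 was far above the other GZM libraries in Angptl8, as in Angptl6 to a lesser degree. The Angptl8 call was lost without it (0.93, adjusted p = 0.0601), without GM 1 (0.0974) or GM 2 (0.0934), and with library totals (1.14, 0.0884). Angptl8 lies within Dock6 on the opposite strand, which did not pass (-0.20). Angpt4, Angptl1 and Angptl7 were too low to be tested, with 11, 12 and 16 counts over the GM libraries and 6, 14 and 15 over the GZM libraries.

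Of the 9 tested genes around lipoprotein lipase 5 rose and 2 fell, at a median of 0.64 (2 and 4 with library totals, median -0.19). Among all tested genes 22.2% rose and 21.7% fell, at a median of -0.09 (9.2% and 59.5% with library totals, median -0.92). Hepatic lipase (Lipc) rose by 2.16. The proprotein convertase genes Pcsk6 and Furin, whose products can cut angiopoietin-like proteins or lipases, rose by 1.62 and 1.27. Furin did not pass in edgeR with library totals (0.45, adjusted p = 0.0532). The lipase maturation factor gene Lmf1 rose by 0.92 (0.10 with library totals, not passed). The 2 that fell, named after their values were seen, were the endothelial lipase gene Lipg (-1.51) and the lipoprotein receptor gene Vldlr (-1.02). Lpl itself did not pass (-0.43 ± 0.47 SE, edgeR adjusted p = 0.485), but passed as lower without GM 2 (-0.85, adjusted p = 0.0275) and with library totals (-1.23, 0.0352).

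The genes most like each of the 7 in log2 CPM over the 6 libraries are a description only, since 6 libraries in 2 groups give high correlations to many genes. Closest to Angpt2 were Pde4a, Plxnc1 and Iqsec1 (Pearson r 0.993, 0.990 and 0.989), and 144 genes exceeded 0.95. Closest to Tek were Siglec5, Iqcb1 and the endothelial and blood transcription factor gene Tal1, itself on the endothelial list (0.992, 0.989 and 0.989). Among the closest to Tie1 were She and Apcdd1 (0.986 and 0.984), and to Angpt1 Klhl13, Tmem200a and the semaphorin gene Sema3d (0.993, 0.986 and 0.983). Closest to Angptl2 were Cand2, Nynrin and Sh3bgrl (0.999, 0.986 and 0.980), and to Angptl4 Tdrd15, the uridine phosphorylase gene Upp2 and Otud5 (0.999, 0.993 and 0.992). Angptl6 had the most such genes, 585 above 0.95, with Ces4a, the hepatocyte transcription factor gene Cebpa and Pdzk1 the closest (0.999, 0.999 and 0.997).

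**Figure D4:**
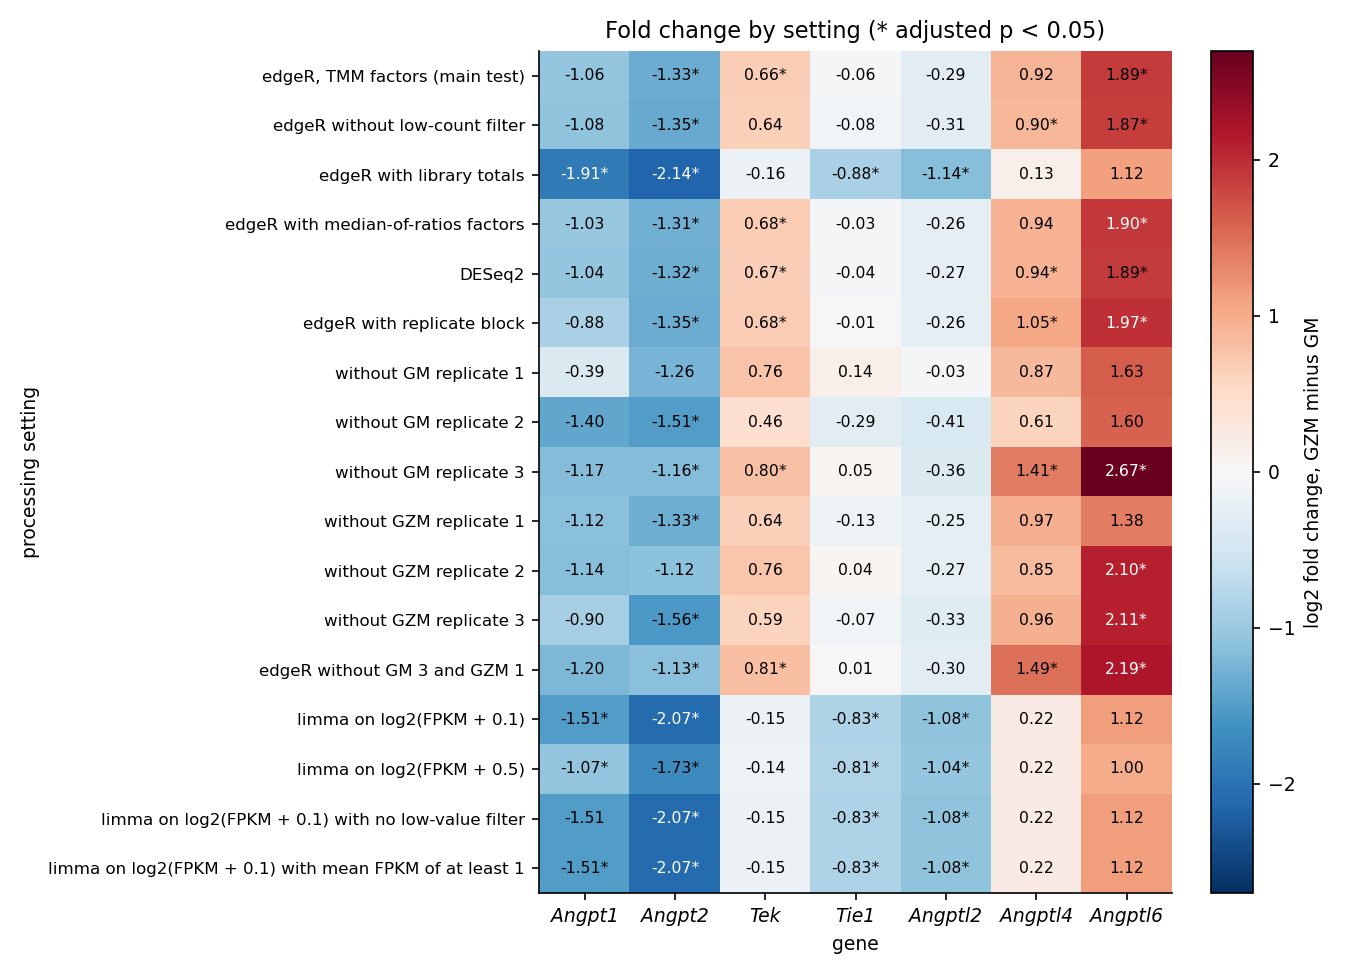
Log2 fold change (GZM minus GM) of the 7 genes (columns) in the main test and 16 other settings (rows), with an asterisk for an adjusted p under 0.05 and colour for sign and size. Angpt2 is negative in every row and passes in 14 of the 16 other settings, while Tek passes in 5 and turns to -0.16 to -0.14 in the 5 settings scaled to library totals.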

How the data were processed

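Messenger RNA was measured in 6 rat liver samples, 3 GM and 3 GZM, grouped and numbered by their titles. Per the labels' protocols RNA was poly(A) selected and made into strand-specific paired-end libraries. The aligner, counter and strand setting were not given in the sources used here. Per the submitters' processing notes the build is mRatBN7.2, but positions in the table reach 282724300 on chromosome 1, further than that build extends, so the build of the gene positions is unsettled and they were not mixed with the GRCr8 promoters.

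The deposited counts are whole numbers per gene, not normalized, per the file headers and values. The deposited FPKM are those counts divided by exon length and library total: all 195738 values were recomputed within 0.01. The GZM columns are headed ZGM and were matched by letters and number. Replicate pairs differed by more than sampling noise (chi-square per degree of freedom 10.5 to 194).

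Counts were fitted in R 4.3.3 by the quasi-likelihood method of edgeR 4.0.16, scaled with TMM and filtered by default, with Benjamini-Hochberg adjustment over all 14298 genes and a threshold of 0.05. In all 7496 genes had an unadjusted p under 0.05. The SE is that implied by the quasi-F value. Scripts were tested on simulated data. Alternatives were other scalings and filters, DESeq2 1.42.0, limma 3.58.1 on log2 FPKM with pseudocounts 0.1 and 0.5, a replicate block and left-out libraries.

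The members and the 21 gene lists (265 entries, 10 unmatched) were chosen with earlier results of these data known. Named genes are the members, the other genes of both families, at most 4 called genes per list by smallest p, a set fixed by name (Hif1a, Vegfa, Lpl, Cdh5, Kdr, Pdgfrb, Alb, Hnf4a, Ptprb, Svep1, Foxo1, Ppara, Pparg), and each member's 3 closest genes by correlation. Items withheld for evaluation are not reported here. Within-library differences were tested by exact two-sided permutation. Lists of blood, bile duct, fat and dividing cells are given as counts, medians and summed CPM, with some fat cell genes named after their values were seen. Within-library comparisons with overlapping genes were added after seeing the data. Figures were drawn with matplotlib 3.10.9.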

Additional observations from a re-analysis of the deposited data

How the results depend on the processing

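Angpt2 kept its direction in all 16 other settings and passed in 14. Angpt1 passed in 4 and Tie1 and Angptl2 in 5 each, all of them scaled to library totals (edgeR with library totals or limma on FPKM), where the median of all genes was -0.92 to -0.70. Angptl6 passed in 8 and Angptl4 in 5, with no pass on that scale. The number of changed genes was 9828 in edgeR with library totals and 9922, 9900 and 9894 in limma on log2(FPKM + 0.1), log2(FPKM + 0.5) and without a low-value filter, against 6285, and 3777 (without GZM 2) to 7024 on leaving out 1 library. On the library-total scale members called higher numbered 0 in all 5 settings, and members called lower 4 (3 in limma without a low-value filter). Leaving out 1 library gave 0 to 3 members higher and 0 to 1 lower. With the replicate block 5166 genes changed, 2676 higher and 2490 lower, and 3 members were higher because Angptl4 passed (1.05, adjusted p = 0.0476). No other member's call changed under the block, and Alb lost its call (2.12, adjusted p = 0.0873). Same-numbered libraries correlated at -0.14, 0.16 and -0.27 in their deviations from group means, so the numbers were not taken to pair the samples.

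Tek turned to -0.16 in edgeR with library totals, -0.15 in limma with pseudocount 0.1 under each filter and -0.14 with 0.5. Tie1 turned to 0.14, 0.05 and 0.04 without GM 1, GM 3 or GZM 2 (range -0.29 to 0.14) and to 0.0068 without both GM 3 and GZM 1. In the same order of edgeR, limma 0.1 and limma 0.5, Ptprb turned to -0.80, -0.75 and -0.65, Foxo1 to -0.25, -0.27 and -0.24, Cdh5 to -0.57, -0.53 and -0.52, and Kdr to -0.026, -0.0035 and -0.0044. Ptprb was also -0.0041 without the low-count filter and ranged from -0.29 to 0.28 on leaving out 1 library, and Pdgfrb from -0.55 to 0.010.

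Of the within-library differences, a pseudocount of 0.5 moved Angpt2 minus Tek to -1.59, Angpt2 minus the endothelial list to -1.22 and Angptl2 minus the stellate and pericyte list to -0.056. The median over a list moved Angpt1 and Angptl2 minus stellate and pericyte to -0.97 and -0.54, Angptl2 minus fibroblast to 1.91, and Tek, Tie1 and Angpt2 minus endothelial to 1.2, 0.52 and -0.72. Angptl2 minus stellate and pericyte ranged from -0.079 to 0.29 on leaving out 1 library. The cause of these changes was not tested. Angpt1 had 11 to 83 counts a library, which limits its precision.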

Other observations

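Markers of further cell types were counted beside the angiopoietin genes. For comparison, 22.2% of all tested genes rose and 21.7% fell, at a median of -0.09. With library totals 9.2% of all tested genes were higher and 59.5% lower, at a median of -0.92. Of 12 dividing cell genes all 12 fell (median -2.12; summed CPM 626.7 to 1605 in GM and 244.9 to 271.2 in GZM). With library totals the same 12 were lower. Of 14 macrophage genes 2 rose and 7 fell (median -0.65), and with library totals 1 was higher and 11 lower (-1.44). Of 11 T cell genes 0 rose and 3 fell (-0.85), and with library totals 0 were higher and 7 lower (-1.65). Of 7 neutrophil genes 1 fell (-0.09), against 2 lower with library totals (-0.89). Of 7 B cell genes 0 were called (0.47), against 1 lower with library totals (-0.29).

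Platelets carry Angpt1 protein, and of 3 tested platelet and megakaryocyte genes 0 were called (1 lower with library totals; median -0.02; summed CPM over the 10 genes 12.0 to 34.8 in GM and 24.9 to 40.2 in GZM, with Gp1bb and Gp5 at 0 counts). Fat cells express Angptl4 and Angptl8. Of 4 tested adipocyte genes 2 rose and 1 fell (1 and 1 with library totals; median 1.26). Summed CPM of the list was 33.7 to 92.6 in GM and 124.1 to 158.0 in GZM. Most of it came from Fabp4 (means 39.5 in GM and 65.9 in GZM) and Cidec (9.63 and 71.6). Adipoq, Plin1 and Retn were too low to be tested, with 6, 2 and 44 counts over the GM libraries and 7, 0 and 0 over the GZM libraries. Lep had 0 counts. Of 9 bile duct genes 2 rose (0.40), against 1 higher and 1 lower with library totals (-0.43). Of 6 erythroid genes 1 rose (0.84), against 1 lower with library totals (0.06). The shares of all tested genes were 22.2% higher and 21.7% lower (9.2% and 59.5% with library totals). The part of any of these cells in the levels of the 7 genes was not tested.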
